A study of Homo sapiens with 11 samples.

Results

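The promoters described here carried H3K4me3 in untreated BEAS-2B cells, while their genes were listed below 0.1 TPM in untreated RT4 cells. For 202 of them, small RNA genes with an effective length of 0 in the RNA files, that listing is not a measurement. A promoter was taken when its H3K4me3 level was at least 5 RPKM (reads scaled to the length of the promoter window and to the size of the library) in the BEAS-2B UT library and its gene had a TPM (transcript abundance scaled to transcript length and library size) below 0.1 in both RT4 UT replicates. This gave 511 promoters of the 24657 listed for both cell lines, which is 6.00% of the 8510 listed for both that reached 5 RPKM. Of those 8510, 7388 had a TPM of at least 1 in both RT4 UT replicates, and they are called RT4-expressed below. The promoters were thus chosen by the UT levels of both lines, which are given as a description.

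The study asked whether changes in gene expression caused by nickel persist after the exposure ends, and measured H3K4me3, a histone mark of active promoters, beside RNA. BEAS-2B is an immortalized line of human bronchial epithelial cells, and RT4 is a line from a human bladder tumour of transitional epithelium. UT cells had no nickel, and Ni-E cells of both lines had 100 μM NiCl2 for 6 weeks. BEAS-2B Ni-W cells had then been grown without nickel for over 6 months as a population expanded from a single colony, while RT4 Ni-W cells had 2 weeks without nickel. For BEAS-2B cells there is 1 ChIP-Seq library per condition, so its differences have no replicate check, and for RT4 cells there are 2 RNA-Seq replicates per condition. Where 3 RPKM values are given together, they are those of UT, Ni-E and Ni-W in that order. The study's methods speak of biological replicates, while the labels do not tie the RT4 replicates to separate cultures, so p-values measure the spread between these samples, which may be technical.

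H3K4me3 is laid down by methyltransferase complexes that are drawn to CpG islands and to the transcription machinery, and it marks the starts of genes that are transcribed or ready to be. Housekeeping genes carry it in most cell types. Genes for developmental transcription factors, matrix proteins and signalling molecules carry it only in some lineages, and in other lineages their promoters may be held by Polycomb proteins or DNA methylation. The mark was measured in BEAS-2B cells and the RNA in RT4 cells, so no gene is compared between the lines on the same measure.

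The promoters of 7 genes stand here for the kinds found in the list, from RefSeq on GRCh38.p14, with 250 bases before and 50 after the start of the gene. The collagen gene COL4A1 (chr13:110307108-110307407, minus strand) shares its start region with COL4A2, whose window is chr13:110307034-110307333 on the plus strand. ZEB1 (chr10:31318966-31319265, plus) and PDGFRB (chr5:150155796-150156095, minus) stand for mesenchymal genes, and MTAP (chr9:21802386-21802685, plus) for a stretch of chromosome 9. CDK6 (chr7:92836524-92836823, minus) and POPDC3 (chr6:105179965-105180264, minus) had RNA in RT4 Ni-E cells, and FHL1 (chrX:136196797-136197096, plus) has the lowest CpG content of the 7. Capitals mark GGGCGG or CCGCCC (the GC box on either strand) and TATAAA or TTTATA (the TATA motif on either strand).
COL4A1: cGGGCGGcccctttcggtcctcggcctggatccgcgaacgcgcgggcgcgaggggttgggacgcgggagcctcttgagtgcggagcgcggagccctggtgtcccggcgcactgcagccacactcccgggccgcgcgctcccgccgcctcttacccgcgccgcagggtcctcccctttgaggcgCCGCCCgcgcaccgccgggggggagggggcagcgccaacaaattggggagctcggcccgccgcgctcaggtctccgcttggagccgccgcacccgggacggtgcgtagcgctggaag
ZEB1: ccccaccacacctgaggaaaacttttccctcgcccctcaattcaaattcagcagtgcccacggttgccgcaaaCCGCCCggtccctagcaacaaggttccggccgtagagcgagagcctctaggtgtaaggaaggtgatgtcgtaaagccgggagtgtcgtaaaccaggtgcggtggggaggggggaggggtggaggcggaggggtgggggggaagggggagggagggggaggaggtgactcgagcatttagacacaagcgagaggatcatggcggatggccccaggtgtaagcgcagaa
PDGFRB: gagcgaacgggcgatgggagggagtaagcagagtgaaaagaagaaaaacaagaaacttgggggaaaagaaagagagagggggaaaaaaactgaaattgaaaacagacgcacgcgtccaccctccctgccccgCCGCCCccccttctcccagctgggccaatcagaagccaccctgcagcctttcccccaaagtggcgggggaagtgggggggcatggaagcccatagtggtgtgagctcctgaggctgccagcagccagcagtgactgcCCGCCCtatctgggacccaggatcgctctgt
MTAP: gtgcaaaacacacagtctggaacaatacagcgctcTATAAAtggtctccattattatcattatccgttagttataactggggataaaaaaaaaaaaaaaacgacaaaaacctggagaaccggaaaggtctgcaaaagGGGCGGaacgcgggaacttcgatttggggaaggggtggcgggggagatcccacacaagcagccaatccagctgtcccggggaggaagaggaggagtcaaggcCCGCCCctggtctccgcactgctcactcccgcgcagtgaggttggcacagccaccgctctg
CDK6: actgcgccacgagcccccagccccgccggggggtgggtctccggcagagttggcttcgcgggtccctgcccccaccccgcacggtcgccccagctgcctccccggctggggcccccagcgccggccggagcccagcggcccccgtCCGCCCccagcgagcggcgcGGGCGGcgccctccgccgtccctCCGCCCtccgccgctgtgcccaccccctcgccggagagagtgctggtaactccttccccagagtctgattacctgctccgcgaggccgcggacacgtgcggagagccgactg
POPDC3: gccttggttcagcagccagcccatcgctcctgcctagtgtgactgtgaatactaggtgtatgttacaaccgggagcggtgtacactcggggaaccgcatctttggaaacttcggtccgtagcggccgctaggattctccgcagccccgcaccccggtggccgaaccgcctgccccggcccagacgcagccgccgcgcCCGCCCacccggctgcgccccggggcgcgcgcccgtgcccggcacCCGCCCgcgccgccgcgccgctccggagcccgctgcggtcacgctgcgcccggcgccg
FHL1: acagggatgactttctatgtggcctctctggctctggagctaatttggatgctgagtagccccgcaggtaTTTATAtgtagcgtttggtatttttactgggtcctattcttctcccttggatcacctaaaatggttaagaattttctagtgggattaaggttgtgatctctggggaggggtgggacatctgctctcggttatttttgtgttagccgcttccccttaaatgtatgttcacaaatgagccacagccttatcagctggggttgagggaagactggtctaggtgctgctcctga

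The windows differed in base composition. COL4A1 had 45 CpG sites in its 300 bases, a ratio of CpG observed to expected of 1.02, and 2 GC boxes. POPDC3 had 43 CpG sites, CDK6 37, ZEB1 17, MTAP 15, PDGFRB 11 and FHL1 4, and the ratio for FHL1 was 0.252. MTAP and FHL1 were the windows of these 7 with a TATA motif. A RefSeq window was at hand for 187 of the 511 promoters. Of these, 149 (79.7%) had a CpG ratio of at least 0.6, against 94.5% of RT4-expressed promoters and 65.3% of all 16040 with a window. A GC box was found in 67.9%, against 76.8% and 58.4%, and a TATA motif in 9.09%, against 3.69% and 9.40%. Among protein-coding genes alone the shares were 78.2% of 119 windows with a CpG ratio of at least 0.6 and 9.24% with a TATA motif, against 94.7% and 3.62% of RT4-expressed protein-coding genes. A match to these letters is a description and not a site of binding. HMGA2, ADAMTS15, ADAMTS5, COL8A1, CCL2 and HOXC8, which are described below, have no window here.

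By type of gene, 158 of the 511 were protein-coding, 227 were small RNA genes (143 microRNA, 81 snoRNA and 3 others) and 126 were long noncoding or other genes. The RNA files give an effective length (the number of positions at which a read of the library could start) of 0 to 202 of the small RNA genes, and list each of them at 0 TPM, so their RNA could not be measured. In all, 226 of the 511 had an effective length under 50 bases, and 285 had a length at which RNA could have been counted. Of these 285, 125 had 0 counts in all 6 RT4 libraries and 201 stayed below 0.1 TPM in all 6. Among the protein-coding genes 54 had 0 counts in all 6 libraries. Just inside the limit on TPM were CLDN11, CDK6 and HLX with 0.09 in at least 1 UT replicate, and just outside it SLC22A4, VIM and MAMLD1 with 0.10 in UT replicate 1. Just inside the limit on H3K4me3 were RNU6-7 at 5.003 RPKM and MIR345 and TRPS1 at 5.02, and just outside it LINC01271 and MIR3191 at 4.994 and ZNF84 at 4.941. For a long transcript 0.1 TPM is not 0 reads: CDK6 had 10 and 17 estimated counts in the UT replicates.

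The level of H3K4me3 was read in a window of 2 kb on each side of a start, which can also hold the start of a neighbour. A position in GENCODE version 44 was found for 447 of the 511, and for 246 of them (55.03%) the start of an RT4-expressed gene lay within 4000 bases. The share was 24.9% among RT4-expressed promoters. Small RNA genes made up 175 of the 246 (175 of 210 with a position). SnoRNA genes and many microRNA genes are known to lie in introns of host genes. SNORD2, at 21.9 RPKM in UT cells the highest of all 511, lies close to the start of EIF4A2, a translation factor with 296 and 256 TPM in the RT4 UT replicates. MIR636, at 20.5 RPKM, lies close to SRSF2, a splicing factor with 465 and 356 TPM. MIR1292, at 18.9 RPKM, lies close to NOP56, a core protein of snoRNA particles with 220 and 234 TPM. These 3 levels are the highest of the list, and each window also covers part of the start region of a gene with much RNA in RT4 cells. Among the protein-coding genes 24 of 158 (15.2%) had such a neighbour, against 23.4% of RT4-expressed protein-coding genes, and 134 had none. The 24 include the cilium genes CFAP52, beside STX8, and DNAI1, beside FAM219A (chosen after their values were seen), and SHOX2, beside RSRC1.

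**Figure D1:**
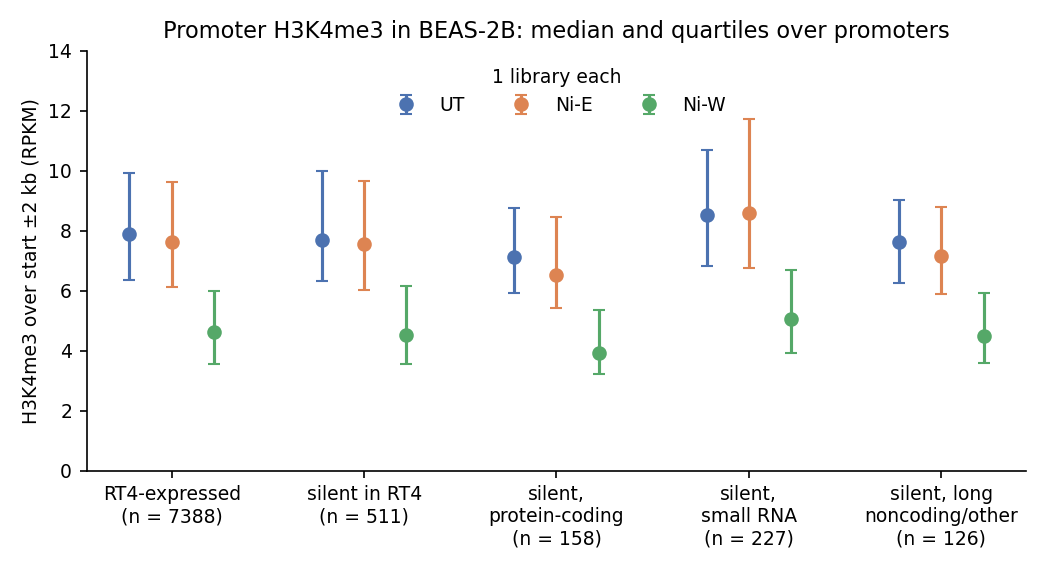
Median (points) and quartiles (bars) of promoter H3K4me3 in RPKM for RT4-expressed promoters, for the 511 silent ones and for their 3 gene types, in the UT, Ni-E and Ni-W libraries of BEAS-2B cells. The 511 (7.69, 7.55 and 4.52 RPKM) and the RT4-expressed promoters (7.90, 7.62 and 4.62 RPKM) have about the same medians in each library. For 246 of the 511 an RT4-expressed start lay within 4000 bases, so windows of the groups can share reads.

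The labelled cell types were set against marker genes. In BEAS-2B UT cells 2 of 16 markers of bronchial and lung epithelium reached 5 RPKM (KRT8 and KRT18, the keratins of simple epithelium), and 9 of the 16 were below 1 RPKM. Of 12 mesenchymal markers, 7 reached 5 RPKM. Of 6 endothelial, 6 haematopoietic and 6 neural markers 0 did, and all 6 neural markers were below 1 RPKM. In RT4 UT cells all 12 urothelial markers had at least 1 TPM, among them UPK2, a uroplakin of the bladder surface, with 285 and 402 TPM. Of the mesenchymal markers 6 were below 0.1 TPM in both RT4 UT replicates, and the summed TPM of the 12 ran from 3.47 to 16.7 over the 6 RT4 libraries. FN1, which is not in the list of 511, had the highest TPM of the 12 in every library. It had 3.43 and 2.03 TPM in UT, 10.8 and 6.14 in Ni-E and 14.4 and 5.02 in Ni-W replicates. ZEB1 and TWIST1 are the mesenchymal markers in the list of 511, and VIM, at 8.95 RPKM, fell outside it by its 0.10 and 0.06 TPM. The antisense gene beside it, VIM-AS1, is in the list, with 13.9, 13.5 and 7.70 RPKM and with 0 counts in every RT4 library.

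The functions of the silent genes were counted in gene lists, without a test. Of protein-coding promoters with at least 5 RPKM, 158 of 7599 (2.08%) were silent in RT4. Of the neuronal and axon guidance genes listed for both lines only 19 of 132 reached 5 RPKM, beside 29 of 91 extracellular matrix genes. The share silent in RT4 was 8 of these 19 neuronal genes (42.1%) and 7 of the 29 matrix genes (24.1%). It was 8 of 36 (22.2%) for developmental transcription factors outside the HOX clusters, and 2 of 14 (14.3%) for the HOX clusters. It was 3 of 19 (15.8%) for WNT, BMP, TGF-beta and FGF ligands and antagonists and 3 of 25 (12%) for factors and markers of epithelial-mesenchymal transition. Ion channel genes gave 5 of 18 (27.8%), and chemokine, cytokine and immune genes 2 of 11 (18.2%). The ion channel count includes KCNJ2-AS1, an antisense gene that shares reads with KCNJ2, so it is not a share of protein-coding promoters alone. Contractile genes gave 1 of 13. On the other side 1 of 244 zinc finger genes of the ZNF, ZSCAN and ZKSCAN names (ZNF26), 1 of 30 histone genes (HIST1H2BN), 0 of 18 HIF targets and metallothioneins and 0 of 1 clustered protocadherin were in the list. Long noncoding genes by symbol gave 112 of 527 (21.3%).

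Among the transcription factors the highest level was that of SHOX2, a homeobox gene of limb and heart pacemaker development, with 15.8 RPKM in UT (95% Wilson interval 15.1 to 16.5), 14.4 in Ni-E and 8.29 in Ni-W cells. IRX1, an Iroquois homeobox gene, had 11.3, 9.46 and 6.04 RPKM. BNC1, a zinc finger gene of basal keratinocytes, had 9.25, 8.84 and 5.72 RPKM. TBX18, a T-box gene of the epicardium and the sinus node, had 8.90, 9.63 and 4.91 RPKM. IRX1, BNC1 and TBX18 had 0 counts in all 6 RT4 libraries and SHOX2 had 0 to 3. The HOX genes were HOXC8, with 7.06, 6.34 and 2.36 RPKM, and HOXC4, with 6.65, 6.56 and 3.36 RPKM. HLX, TWIST1, WT1 and SOX5 complete the list of developmental factors (TWIST1 and WT1 are described as chosen after their values were seen). WT1, a factor of kidney and mesothelium, had 7.23, 7.92 and 2.71 RPKM, while TWIST1, a factor of mesenchyme, had 7.36, 6.43 and 6.08 RPKM. Both had 0 counts in every RT4 library.

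**Figure D2:**
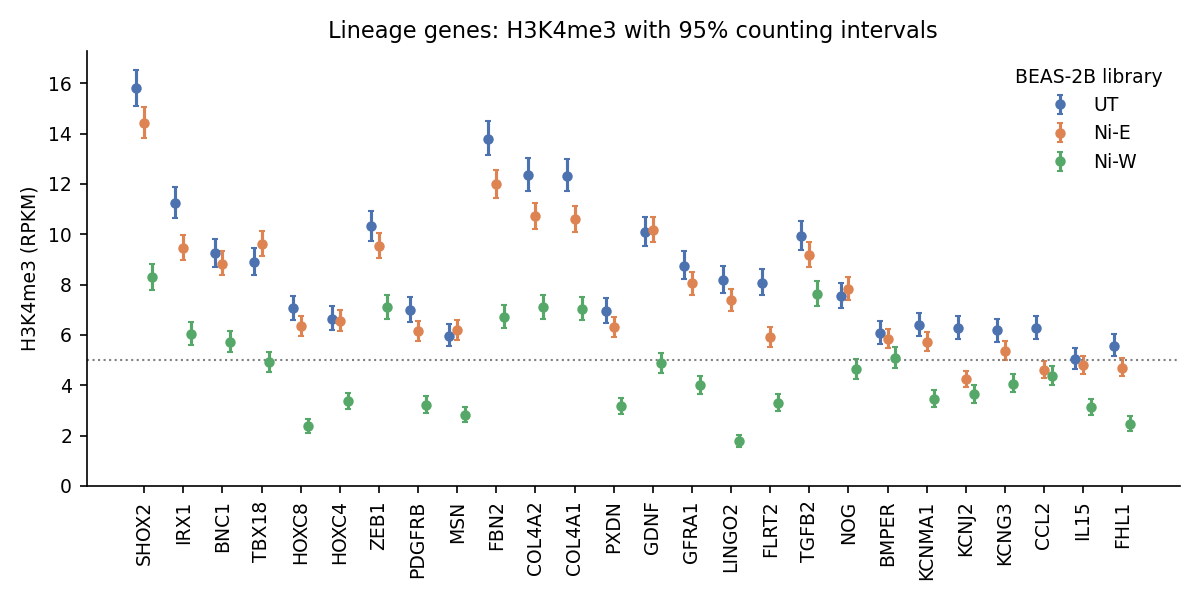
H3K4me3 in RPKM for 26 lineage genes of the list in the 3 BEAS-2B libraries, with 95% Wilson intervals that cover counting error only. The dotted line is the 5 RPKM limit for UT cells, and the Ni-W value is the lowest for each gene. Unscaled levels of strong promoters were lower in Ni-W cells in general, with a median ratio to Ni-E of 0.585. On median-scaled levels TGFB2, BMPER, KCNJ2 and CCL2 lie 1.03 to 1.18 times higher in Ni-W than in Ni-E cells and the other genes shown lie lower.

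The mesenchymal genes were led by ZEB1, a repressor of E-cadherin, with 10.3, 9.54 and 7.11 RPKM. Its RT4 levels were 0.04 and 0.04 TPM in UT, 0.10 and 0.11 in Ni-E and 0.04 and 0.05 in Ni-W replicates. PDGFRB, a receptor of fibroblasts and pericytes, had 6.98, 6.15 and 3.22 RPKM. MSN, which ties actin to the cell membrane, had 5.97, 6.18 and 2.81 RPKM and 0 counts in every RT4 library. Matrix genes included FBN2, a microfibril protein with 13.8, 11.99 and 6.72 RPKM, and the basement membrane collagens COL4A2 with 12.4, 10.7 and 7.11 RPKM and COL4A1 with 12.3, 10.6 and 7.03 RPKM. The COL4A1 and COL4A2 windows overlap, as the sequences above show, and hold largely the same reads. PXDN, a peroxidase that cross-links collagen of this type, had 6.95, 6.31 and 3.16 RPKM. COL8A1 (chosen after its values were seen), a collagen of vessel walls and the cornea, had 5.21, 4.05 and 4.88 RPKM. FHL1, a LIM protein of muscle, had 5.57, 4.70 and 2.46 RPKM. None of FBN2, COL4A1, COL4A2 and PXDN passed 0.05 TPM in an RT4 library.

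The neuronal list held a ligand together with its receptor. GDNF, a survival factor for neurons, had 10.1, 10.2 and 4.88 RPKM, and GFRA1, the receptor that binds it, had 8.75, 8.04 and 4.001 RPKM, both with 0 counts in all RT4 libraries. LINGO2, a membrane protein with leucine-rich repeats, had 8.17, 7.38 and 1.77 RPKM, and FLRT2, a guidance protein of a related build, had 8.08, 5.91 and 3.30 RPKM. Of the signalling genes, TGFB2 had 9.94, 9.18 and 7.63 RPKM, the BMP antagonist NOG had 7.55, 7.82 and 4.63, and the BMP-binding protein BMPER had 6.07, 5.83 and 5.08. Potassium channel genes were KCNMA1 with 6.39, 5.72 and 3.46 RPKM, KCNJ2 with 6.29, 4.23 and 3.63, its antisense gene KCNJ2-AS1 with 6.26, 4.23 and 3.62, and KCNG3 with 6.17, 5.36 and 4.06. KCNJ2 and KCNJ2-AS1 start close together and share reads. CCL2, a chemokine for monocytes, had 6.27, 4.61 and 4.37 RPKM, and IL15, a cytokine for natural killer cells, had 5.04, 4.80 and 3.13.

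On the short arm of chromosome 9 silent genes lay side by side. Ordered by position, the promoters with at least 5 RPKM held a run of 5 neighbours that were all in the list, from the start of MIR31HG at 21559849 to that of CDKN2B at 22009305 (GENCODE, GRCh38). MIR31HG, the host gene of a microRNA, had 10.2, 8.70 and 6.30 RPKM. MTAP, an enzyme of methionine salvage that most cells make, had 9.20, 8.76 and 3.60 RPKM. CDKN2A, which encodes inhibitors of the cell cycle, had 17.6, 15.8 and 8.51 RPKM, the highest level of any protein-coding gene in the list. CDKN2B-AS1 had 17.1, 15.7 and 7.22 RPKM and CDKN2B, another cell cycle inhibitor, had 7.88, 5.99 and 6.49. All 5 had 0 estimated counts in all 6 RT4 libraries, which totalled 17075833 to 27736454 counts. The next genes toward the centromere, DMRTA1, LINC01239, ELAVL2 and IZUMO3, were listed at 0 counts in all 6 libraries as well, with 4.90 RPKM or less in BEAS-2B UT cells. On the other side KLHL9, a ubiquitin ligase adaptor whose start lies at 21335404, had 489 to 717 counts, and FOCAD had 693 to 754. The interferon genes between KLHL9 and MIR31HG had 0.299 RPKM or less in UT cells and were listed at 0 counts in all 6 RT4 libraries. The genes of this stretch and its flanks were chosen after their values were seen, apart from those of the fixed list of this region. Chromosome 9 had the largest share of promoters in the list of any chromosome compared, 37 of 383 (9.66%), and chromosome 16 the smallest, 8 of 301 (2.66%). The list includes small RNA genes, and the RNA of most of these could not be measured in RT4 cells. Shares per chromosome among genes whose RNA could be counted were not tested. The next longest run of genes other than small RNA genes was BVES, BVES-AS1 and POPDC3 on chromosome 6, with starts from 105137157 to 105180014.

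**Figure D3:**
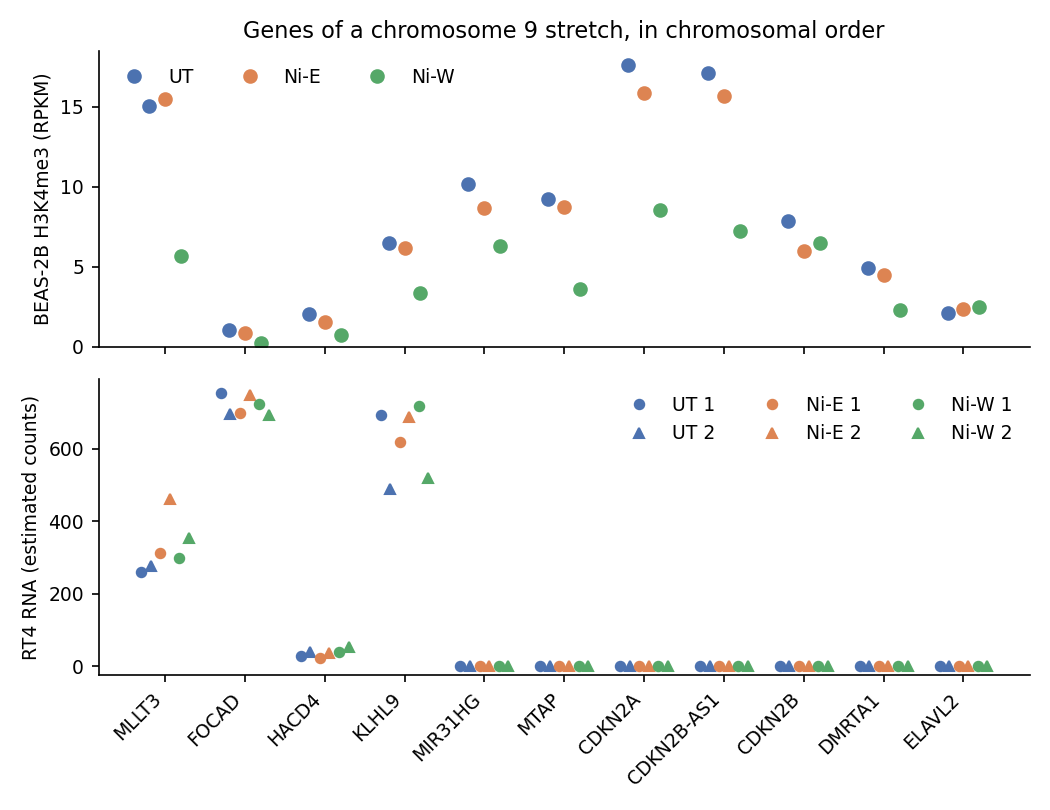
BEAS-2B H3K4me3 in RPKM (top, 1 point per library) and RT4 estimated counts (bottom, 1 point per replicate) for 11 genes in their order along the short arm of chromosome 9. MLLT3 to KLHL9 have RT4 counts in every library, and from MIR31HG on all points lie at 0.

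Over the BEAS-2B conditions the 511 promoters had medians close to those of the other strong promoters. Their median level was 7.69 RPKM in UT, 7.55 in Ni-E and 4.52 in Ni-W cells, against 7.90, 7.62 and 4.62 for RT4-expressed promoters. For 246 of the 447 with a position an RT4-expressed start lay within 4000 bases, so their windows can share reads with the group they are compared with. The 134 protein-coding genes with no such neighbour (chosen after seeing the data) had medians of 6.94, 6.30 and 3.75 RPKM. The chromatin dynamic score (the difference of the square roots of RPKM over the library median) puts both libraries of a pair on a common scale. For Ni-W against Ni-E cells, whose libraries the choice of promoters did not use, its median was -0.35 for the 511, -0.35 for RT4-expressed promoters and -0.075 for all listed promoters. For Ni-E against UT cells the medians were 0.088, 0.097 and 0.053, and for Ni-W against UT cells -0.26, -0.26 and -0.027. Both of the latter use the UT library that chose the promoters. Among the 134 the median score was -0.29 for Ni-W against Ni-E cells, 0.045 for Ni-E against UT cells and -0.26 for Ni-W against UT cells.

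Promoters past 1.5-fold were counted next. On levels divided by the library median, 177 of the 511 were lower in Ni-W than in Ni-E cells (34.6%) and 7 were higher. Among all promoters with at least 1 RPKM in either library 30.5% were lower and 4.04% higher, and among RT4-expressed promoters 34.4% were lower and 0.487% higher. For Ni-W against UT cells 108 were lower and 13 higher, beside 18.4% and 4.36% of all promoters and 18.3% and 1% of RT4-expressed promoters. For Ni-E against UT cells 8 were higher and 0 lower, beside 0.847% and 0.567% of all promoters and 0.0271% and 0.0271% of RT4-expressed promoters, and nothing is read from the contrasts with UT. The split into higher and lower turned with the scaling. When the Ni-W and Ni-E libraries were brought to the same median over promoters with at least 5 RPKM in UT cells, 31 of the 511 were lower and 39 higher, and with quantile normalization 33 were lower and 26 higher. The median log2 ratio of all listed promoters for this pair was -0.28 on median-scaled levels and 0.14 when strong promoters were matched. The 20 promoters named for the highest and lowest scores kept their sign under every scaling tried. They were picked as the extremes of this score, which made that likely, so nothing is read from it for the other promoters.

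The largest gain was at the microRNA genes MIR15B and MIR16-2 on chromosome 3, which start at 160404588 and 160404745 (GENCODE, GRCh38), so that their windows overlap and share most reads. MIR15B had 8.13 RPKM in UT, 5.90 in Ni-E and 17.1 in Ni-W cells (95% Wilson interval 16.3 to 17.8). Its score against Ni-E cells was 1.84. MIR16-2 had 7.43, 5.28 and 16.1 RPKM and a score of 1.84. They are printed with the microRNAs MIR137 and MIR21 (chosen after their values were seen), with the seed (bases 2 to 8) in capitals, from RefSeq.
hsa-miR-15b-5p: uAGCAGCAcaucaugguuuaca
hsa-miR-16-5p: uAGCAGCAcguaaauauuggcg
hsa-miR-137-3p: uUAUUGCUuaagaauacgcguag
hsa-miR-21-5p: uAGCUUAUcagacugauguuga

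MIR15B and MIR16-2 share the seed AGCAGCA, which is known for pairing with messenger RNAs of cell cycle genes. MIR21, a microRNA abundant in many tumours, had 12.5, 12.3 and 13.9 RPKM, and MIR137, which is known from neurons, had 5.12, 5.01 and 2.83 RPKM. The RNA files list all 4 at 0 TPM with an effective length of 0, so RT4 cells cannot be compared. The other high scores for Ni-W against Ni-E cells were those of MIR632 (0.67), MIR933 (0.66), SNORD144 (0.61) and the long noncoding gene LINC00882 (0.60), or 1.52 to 1.69 times the Ni-E level after scaling.

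A set of 6 promoters had the lowest scores for Ni-W against Ni-E cells. NR4A3, a nuclear receptor of the immediate early response, had 12.6, 12.9 and 4.21 RPKM and a score of -1.11, or 0.404 of the Ni-E level after scaling. The other 5 were snoRNA genes. SNORD49A had 15.7, 17.4 and 6.57 RPKM and a score of -1.12, and SNORD49B and SNORD65, which belong to the same run on chromosome 17, had 15.2, 16.8 and 6.32 RPKM and 12.8, 14.9 and 5.39 RPKM. The starts of these 3 lie between 16439505 and 16441226 (GENCODE, GRCh38), so their windows overlap and share reads. SNORD43 had 13.1, 15.99 and 6.15 RPKM and SNORD110 had 16.1, 17.1 and 6.80. LINGO2, the neuronal gene given above, had a score of -1.05 and 0.297 of its Ni-E level, a lower share than NR4A3 kept. SLC43A3 (chosen after its values were seen) had 5.27, 5.11 and 1.55 RPKM. In the other direction, GAS1, a growth arrest gene, had 5.87, 6.06 and 6.47 RPKM and ADAMTS6 had 6.32, 7.34 and 6.72 (both chosen after their values were seen), so that in both the Ni-W level lay above the UT level before any scaling.

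**Figure D4:**
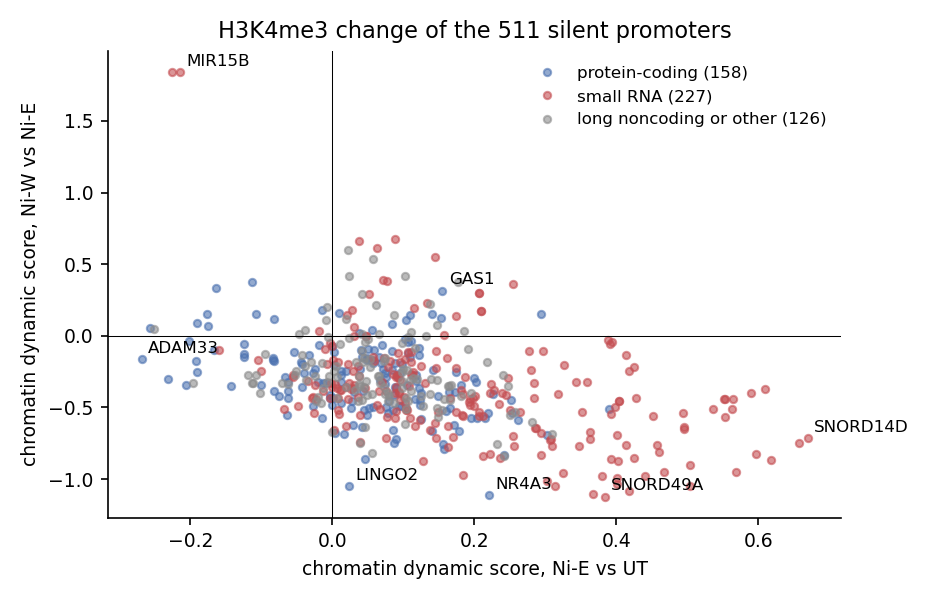
Chromatin dynamic score of each of the 511 promoters for Ni-E against UT cells (horizontal) and Ni-W against Ni-E cells (vertical), by gene type, with no unit. Both axes use the Ni-E library, so a slope between them carries no result; MIR15B stands at 1.84 on the vertical axis, NR4A3 and LINGO2 at -1.11 and -1.05.

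Between Ni-E and UT cells the 4 highest scores were all at snoRNA genes. SNORD14D and SNORD14C, in the gene of the chaperone HSPA8, had 5.18, 8.58 and 3.52 RPKM and 7.31, 11.0 and 4.79 RPKM. SNORD12 had 11.96, 15.8 and 7.07 RPKM and SNORD79 had 6.23, 9.40 and 5.58. All 4 were highest in Ni-E cells. The 8 promoters past 1.5-fold higher in Ni-E cells were all snoRNA genes. Windows of snoRNA genes in the same host gene, such as SNORD14C and SNORD14D, can share reads, so the 8 may not be separate. With no scaling, with quantiles and with strong promoters matched, 4 were past 1.5-fold higher. The lowest scores were those of ADAM33, a metalloproteinase gene with 5.04, 3.22 and 2.07 RPKM, of KCNJ2 and KCNJ2-AS1, and of PYY, a gut hormone gene with 5.36, 3.63 and 1.94 RPKM. These 4 had UT levels of 5.04 to 6.29 RPKM, near the limit that chose them.

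Most of the silent genes that could be counted were below 0.1 TPM in nickel-exposed RT4 cells too. Of the 285 with an effective length of at least 50 bases (a limit chosen after seeing the data), 221 (77.5%) were below 0.1 TPM in both replicates after 6 weeks of nickel and 225 (78.9%) after 2 weeks without nickel. Over all 511, which include genes that can only be listed at 0, the numbers were 441 and 446. The counts of all 511 together came to 12.7 and 13.6 CPM (counts scaled to a common library total) in the UT replicates, 51.9 and 42.9 in Ni-E and 35.2 and 25.3 in Ni-W replicates. The UT values were kept low by the rule, so their distance from the others is not a result. HMGA2, CDK6, ADAMTS15 and ADAMTS5 gave 391 and 499 of the counts in the Ni-E replicates. Without these 4 genes (left out after seeing the data) the sums were 30.5 and 24.9 CPM in Ni-E and 26.2 and 19.1 in Ni-W replicates, which overlap. At least 0.5 TPM in both Ni-E replicates was reached by 7 genes. The same choice made the other way round, genes with at least 5 RPKM that were below 0.1 TPM in both Ni-E replicates and at 0.5 or more in both UT replicates, gave 2 of 491. In Ni-W cells 1 gene reached 0.5 TPM in both replicates, against 4 of 492 the other way round.

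Of the 7, SNORA9 and SNORA21 are snoRNA genes with 2 or fewer counts in any library, which the files list at 41.1 and 23.2 TPM in the Ni-E replicates with an effective length of 5.09 in UT replicate 1. The other 5 were protein-coding genes with 11 or more counts in each Ni-E replicate. Their Ni-E and UT levels are the values that chose them and are given as a description. HMGA2, a chromatin protein of embryonic and mesenchymal cells, had 0 and 0.02 TPM in UT, 3.67 and 3.03 in Ni-E and 0.18 and 0.17 in Ni-W replicates, from 106 and 151 counts in Ni-E cells. Both Ni-W values lay above the UT limit of 0.1 TPM. ADAMTS15, a matrix protease, had 0.04 and 0.09 TPM in UT, 1.79 and 1.04 in Ni-E and 0.38 and 0.34 in Ni-W replicates. CDK6, the kinase that the CDKN2A and CDKN2B products bind, had 0.09 and 0.09 TPM in UT, 0.98 and 0.84 in Ni-E and 0.99 and 0.48 in Ni-W replicates, and its Ni-E and Ni-W replicates overlapped. POPDC3, a membrane protein of muscle that binds cyclic AMP, had 0 and 0.04 TPM in UT, 0.83 and 0.85 in Ni-E and 0.10 and 0.10 in Ni-W replicates. ADAMTS5, a protease of the matrix protein aggrecan, had 0.01 and 0.02 TPM in UT, 0.82 and 0.58 in Ni-E and 0.41 and 0.20 in Ni-W replicates. All 5 levels are low, below 4 TPM.

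**Figure D5:**
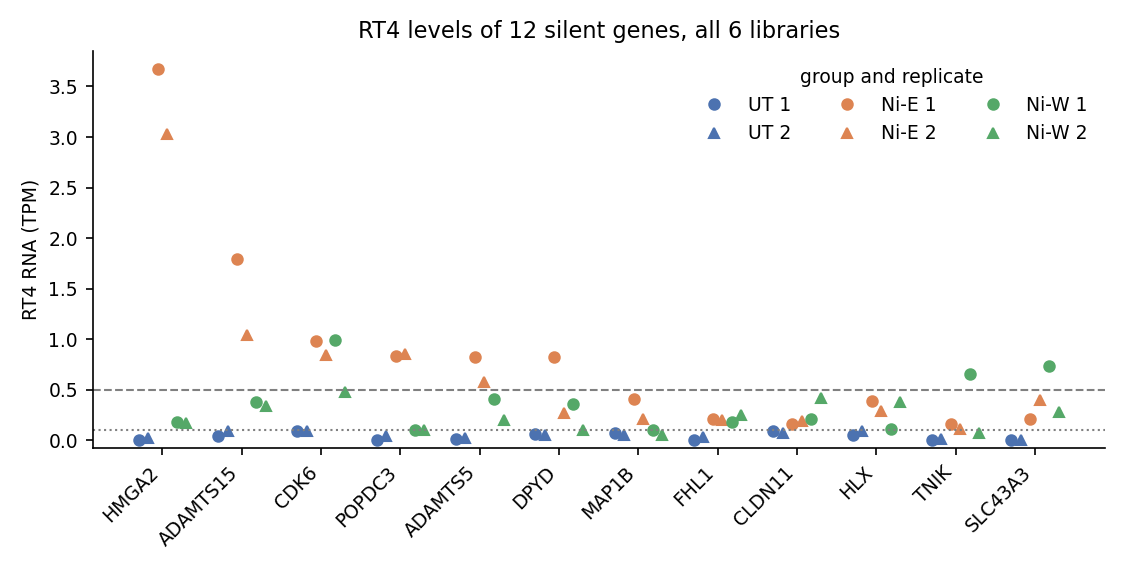
RT4 RNA in TPM for 12 genes of the list (horizontal) in all 6 libraries, with circles for replicate 1 and triangles for replicate 2, a dotted line at 0.1 TPM and a dashed line at 0.5 TPM. HMGA2 stands at 3.67 and 3.03 TPM in Ni-E cells and at 0.18 and 0.17 in Ni-W cells, while CDK6 replicates of Ni-E and Ni-W cells overlap.

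Differences between groups in RT4 cells were tested with edgeR's quasi-likelihood test over 14502 genes, and 22 of the 511 had counts enough to be tested. A gene that was near 0 in UT cells enters such a test mainly through nickel samples, so the calls against UT are given without being read. They were 4 higher and 0 lower in Ni-E cells (HMGA2, ADAMTS15, CDK6 and ADAMTS5), beside 1.45% of all genes called higher and 0.71% called lower. For Ni-W cells 1 was called higher (CDK6) and 0 lower, beside 0.503% and 0.0965%. Of the 22, 13 and 10 had an unadjusted p below 0.05 in these contrasts by edgeR. The share of all 14502 genes below this limit was not determined, so nothing is read from such counts, here or below. For Ni-E and Ni-W against UT, in that order, limma on TPM called 3 and 1 of the 12 it tested, beside 110 and 63 of 14076 genes called higher. DESeq2 called 6 of 70 and 4 of 30 tested from the 511, beside 461 of 16517 and 342 of 15043 genes called higher. Without either UT or either Ni-E replicate fewer genes were called for Ni-E against UT cells, among the 22 and among all genes. The call of CDK6 in Ni-W cells was lost with any library left out, and calls among all genes fell there as well. The rule used neither library group of the contrast of Ni-W with Ni-E cells, but the filter on counts did. Genes near 0 in UT cells passed it through the nickel group in which they were high, so lower Ni-W values of those that passed through Ni-E cells are partly fixed by this selection and are given as a description. In this contrast edgeR called 0 of the 22, with 0% of all genes called in either direction, while 5 of the 22 had an unadjusted p below 0.05. Limma on TPM called 0 of the 12 it tested, and 0 over all genes. DESeq2 called 1 of 20 tested from the 511, which was HMGA2, beside 89 genes higher and 50 lower of 14675. A fit with a replicate block called 5 lower, beside 394 genes higher and 261 lower of 14502, so the 0 calls hold for the fit without a block. HMGA2 had a log2 fold change for Ni-W against Ni-E of -4.01 ± 0.41 (SE, n = 2 per group), at an adjusted p of 0.148 by edgeR with Benjamini-Hochberg adjustment. Under the other settings its adjusted p ran from 5.27e-08 to 1.00. In simulated data of this size and spread the test recovered 74 of 100 genes with a 4-fold change. It recovered 8 of 100 with a 2-fold change, so most changes of 2-fold would not have been called. Recovery for the 22 as a set, or for genes with as few counts as DPYD (2 to 20 in the RT4 libraries), was not tested.

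The other 4 genes with an unadjusted p below 0.05 by edgeR had negative log2 fold changes, a direction that the filter on counts partly fixed. Their adjusted p by edgeR ran from 0.349 to 0.586. POPDC3 had a log2 fold change of -3.14 ± 0.68 (SE), MAP1B of -2.12 ± 0.48, ADAMTS15 of -1.97 ± 0.44 and ADAMTS5 of -1.28 ± 0.38. MAP1B (chosen after its values were seen), a microtubule protein of neurons, had 0.07 and 0.05 TPM in UT, 0.41 and 0.21 in Ni-E and 0.10 and 0.05 in Ni-W replicates. For ADAMTS15, ADAMTS5 and POPDC3 the Ni-E levels also chose the genes. CDK6 had a log2 fold change of -0.41 ± 0.31 (SE), at an adjusted p of 1.00 by edgeR. In BEAS-2B cells the promoters of these 6 genes all had their lowest RPKM in Ni-W cells. Unscaled levels of strong promoters were lower there in general, so nothing is read from this. Over the 8510 with at least 5 RPKM the median ratio was 0.585 for Ni-W to Ni-E and 0.557 for Ni-W to UT. On median-scaled levels ADAMTS15 and ADAMTS5 lay at 1.08 and 1.10 times their Ni-E level. HMGA2 had 9.45, 9.80 and 4.86 RPKM and CDK6 had 12.04, 11.4 and 6.31. ADAMTS15 had 5.58, 4.07 and 3.55 RPKM, ADAMTS5 had 6.83, 4.98 and 4.42, POPDC3 had 5.91, 4.99 and 3.29, and MAP1B had 7.37, 7.07 and 4.02. Of the lineage genes above, CCL2, TWIST1, WT1, MSN, GDNF and FBN2 had 0 counts in all 6 RT4 libraries.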

How the data were processed

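H3K4me3 was measured by ChIP-Seq in BEAS-2B cells (1 library per condition) and RNA by RNA-Seq in RT4 cells (2 replicates per condition). ChIP-Seq reads had been mapped with BWA (hg38), and the authors deposited RPKM values per promoter, from 2 kb before to 2 kb after the start, without peak calling and with redundant reads removed. The study describes 2 biological replicates of ChIP, and how they relate to the 1 library per condition is not given in the sources used here. For RNA-Seq the authors deposited RSEM expected counts, TPM and FPKM per gene. FPKM entered no result. The study's methods name STAR and hg19 for its RNA-Seq, and whether this holds for the RT4 files is not given in the sources used here.

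In each library 100% of the RPKM values fell on multiples of 1 step, within the rounding of the files. Taking 1 step as 1 read gave 28385725 reads in UT, 37493949 in Ni-E and 29933551 in Ni-W cells, and 95% Wilson intervals. These cover counting error only, and 3 reads were the floor. RT4 libraries held 17075833 to 27736454 expected counts, which were rounded and tested with edgeR 4.0.16 (quasi-likelihood, TMM factors, edgeR's expression filter, 3 groups, no block) in R 4.3.3. Genes were called at a Benjamini-Hochberg adjusted p below 0.05 and at least 1.5-fold. DESeq2 1.42.0, limma 3.58.1 on log2(TPM + 1), other filters, other scalings and each replicate left out in turn were the alternatives. With 1 ChIP library per condition no test was made there. Tools were checked on simulated data, where the direction of 200 of 200 changed promoters was recovered. Gene positions came from GENCODE version 44, and 447 of 511 were found.

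The promoters, the gene lists and the rules were chosen with earlier results of these data known. Genes were named by rule: the highest UT levels (8), the highest and lowest scores (6 each for Ni-W vs Ni-E, 4 each for Ni-E vs UT), those next to each limit (3), those called in RT4 for Ni-W vs Ni-E (at most 10), the highest TPM in Ni-E and in Ni-W cells (8) and the 4 highest of each list. The text marks further genes as named once their values were known.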

Additional observations from a re-analysis of the deposited data

How the results depend on the processing

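The number of promoters moved with its limits, to 807 at 3 RPKM, 128 at 10 RPKM and 799 at a TPM below 0.5. It was 285 without genes of an effective length under 50 and 134 for protein-coding genes with no RT4-expressed neighbour start (both chosen after seeing the data, as are later uses of these groups). At a TPM of 0 it stayed within 1.5 times.

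The median score for Ni-E vs UT turned to -0.052 without median scaling, -0.0091 with quantile normalization and -0.011 with scaling by the median of strong promoters. For Ni-W vs UT these settings gave -0.56, -0.058 and -0.044. The contrast of Ni-W with Ni-E gave -0.51, -0.057 and -0.042. The median log2 ratio of all promoters between these lay at -0.28 with median scaling, -0.59 without, -0.055 with quantiles and 0.14 with strong promoters. Promoters past 1.5-fold numbered 391 (2 higher, 389 lower), 52 (30 and 22) and 60 (38 and 22) for Ni-W vs UT, 363 (2 and 361), 59 (26 and 33) and 70 (39 and 31) between Ni-W and Ni-E, and 5 (4 and 1), 4 (4 and 0) and 5 (4 and 1) for Ni-E vs UT, in the order no scaling, quantiles and strong promoters. At 2-fold they numbered 10, 33 and 0 in the same order of contrasts. Among the 134 protein-coding genes with no RT4-expressed neighbour start 38, 44 and 0 passed 1.5-fold. All 20 single promoters named for their scores kept their sign, which their choice as extremes made likely.

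RT4 calls for Ni-E vs UT were 4 with RLE, no filter and the 2 groups alone, 6 with DESeq2, 3 with limma and 1 with at least 10 counts in every sample. With a replicate left out they ran from 0 to 4 (1 without either UT replicate, 0 without either Ni-E replicate). For Ni-W vs UT they were 4 with DESeq2, 2 with no filter, 0 with at least 10 counts or the 2 groups alone, and 0 to 0 with a replicate left out. For Ni-W vs Ni-E DESeq2 and no filter each gave 1. Over all genes DESeq2 called 89 higher and 50 lower of 14675, and the fit with no filter 9 higher and 5 lower of 19464. With 1 library left out the lone sample of its group is assumed to vary like the others. The fit with a replicate block called 14, 9 and 5, in the order Ni-E vs UT, Ni-W vs UT and Ni-W vs Ni-E. Those 5 were HMGA2, ADAMTS15, POPDC3, MAP1B and ADAMTS5, all lower, a direction that the filter on counts partly fixed. The differences between replicates 1 and 2 of 2 groups correlated at 0.66 to 0.76 across genes, and each replicate 2, the duplicate by its title, is deeper. With 2 numbers this does not establish a pairing. The main fit has no block, so a difference shared by replicates of the same number stays in its spread. Over all genes the block moved the calls from 211 higher and 103 lower to 1108 and 725 for Ni-E vs UT, from 73 and 14 to 840 and 403 for Ni-W vs UT, and from 0 and 0 to 394 and 261 between Ni-W and Ni-E.

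At least 0.1 TPM in both replicates was reached by 31 genes in Ni-E and 21 in Ni-W cells, 1 TPM by 4 in Ni-E, and 10 counts by 12 and 10. In 1 replicate alone 10 to 14 genes reached 0.5 TPM in Ni-E and 3 to 10 in Ni-W cells. Without the shortest genes 0 reached it in Ni-W cells. The cause of these changes was not tested.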

Other observations

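The list holds 3 genes named as read-through of a pair of neighbours. TMEM189-UBE2V1 was listed at 1.03 TPM in Ni-E replicate 1 and 1.45 TPM in Ni-W replicate 1, and at 0 in the other 4 libraries. ABHD14A-ACY1 was listed at 1.48 and 0.45 TPM in the same libraries and at 0 in the others. DNAJC25-GNG10 was listed at 0.23 TPM in Ni-E replicate 2 and at 0 in the others. Such transcripts share their exons with both single genes, so how the estimator divides reads among them is uncertain. GSTP1 (chosen after its values were seen), a detoxifying enzyme made by many epithelia, had 5.86, 6.39 and 2.76 RPKM in UT, Ni-E and Ni-W BEAS-2B cells and 0 counts in all 6 RT4 libraries.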
